A study of Danio rerio with 12 samples.

Results

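The integrin and fibronectin genes of the zebrafish ovary are described here in adamts9 mutants and wild-type fish. Members were every gene whose symbol begins with itga or itgb, without the binding-protein genes itgb1bp1, itgb1bp2 and itgb3bp and the secreted integrin-like gene itgbl1, together with fn1a and fn1b. This gave 35 genes among the 26171 named genes of the count table, of which 34 passed the filter on low counts. itgb3a did not pass: it was listed at 0 in 8 libraries and reached at most 10.1 estimated counts in any other.

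Poly(A) RNA of ovaries was sequenced in 12 libraries, 3 for each of 4 groups: mutant at 61 days post fertilization (dpf), wild type at 61 dpf, mutant at 47 dpf and wild type at 47 dpf. The genotype is labelled only as mutant or wildtype, the series title names adamts9 as the gene, and the wild type is named as the AB strain. Neither the mutant allele nor whether a library holds 1 fish or a pool is given in the sources used here. adamts9 encodes a secreted metalloprotease that acts on the extracellular matrix, and the stated purpose was to learn what it does in forming and keeping the ovary. All groups shared the same housing and RNA extraction, and the cDNA and library kits are the same for both ages.

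Integrins are cell-surface receptors built from 1 alpha and 1 beta chain, which bind matrix proteins outside the cell and the actin cytoskeleton inside it. The alpha chain largely sets the ligand: some bind the RGD motif of fibronectin and vitronectin, others collagen or laminin, and a further group is carried by leukocytes. Fibronectin is a secreted glycoprotein that cells assemble into fibrils by pulling on it through integrins, and in an ovary it lies in the stroma and around follicles. Pairings and ligands named below are those known from mammals unless stated otherwise.

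Total estimated counts ranged from 17612871 to 26031556 in mutant and from 21702522 to 38754919 in wild type at 61 dpf, and from 16456718 to 29277732 in mutant and from 23723588 to 27678709 in wild type at 47 dpf. The adamts9 transcript itself averaged 14.5 ± 1.59 CPM (each count relative to its library's total) in mutant and 13.8 ± 3.35 CPM in wild type at 61 dpf, and 14.3 ± 1.07 CPM in mutant and 16.7 ± 2.67 CPM in wild type at 47 dpf (SD, n = 3 each), so its level does not check the genotype labels. All 12 oocyte markers listed, among them gdf9, zar1 and ddx4, were detected in every group, with a summed level of 7491 to 9624 CPM over the libraries. CPM were scaled by the trimmed mean of M-values (TMM). They are not divided by transcript length, so they compare libraries for 1 gene and not genes with each other. In bulk RNA a change in the number of cells of a type and a change in RNA per cell cannot be told apart.

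Fibronectin 1b was the member that differed most firmly between the genotypes. fn1b was 7.24-fold higher in mutant than in wild-type ovaries at 47 dpf and passed the edgeR threshold there. Its mutant libraries also lay above wild type at 61 dpf without passing that threshold. The other copy, fn1a, had nearly equal group means at 47 dpf. No integrin gene passed the edgeR threshold in either mutant comparison, where 0.0888% of all genes did at 47 dpf and 1.82% at 61 dpf. DESeq2 called itgae.2 at 47 dpf, beside 0.81% of all genes, and itga6l at 61 dpf, beside 11.2%. Across the integrins, log2 fold changes at 47 dpf were positive for 24 of 32 genes, where 52.7% of all genes tested were, and at 61 dpf for 17 of 32, where 50.4% were.

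Both fibronectin genes encode the same kind of matrix protein and are the zebrafish counterparts of the single mammalian fibronectin gene. In CPM of replicates 1, 2 and 3, fn1b stood at 739.8, 308.5 and 247.3 in mutant ovaries at 47 dpf, against 69.8, 59.95 and 49.2 in wild-type ovaries at 47 dpf. The lowest mutant library was thus above the highest wild-type library, and mutant replicate 1 was well above the other mutants. On the log2 scale mutant over wild type was 2.86 ± 0.42 (SE), with an edgeR adjusted p of 0.0268, so fn1b rose in the mutants. Of all 21407 genes tested at 47 dpf, 19 passed this threshold, a background of 0.0888%, and fn1b was the 1 member among 34. Without mutant replicate 1 the log2 fold change was 2.22 (edgeR adjusted p = 0.0342). The call was lost when any of the 3 wild-type libraries at 47 dpf was left out (adjusted p 0.117 without replicate 1, 0.183 without replicate 2 and 0.201 without replicate 3), although the log2 fold change stayed between 2.73 and 2.97. It was also lost, at adjusted p of 0.0517 to 0.0582, without mutant replicate 1, wild-type replicate 1 or wild-type replicate 3 at 61 dpf, which share in the estimate of spread. With only the libraries at 47 dpf in the fit the adjusted p was 0.117 by edgeR, and with DESeq2 on all 12 libraries it was 7.41e-09.

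At 61 dpf fn1b had 306.0, 545.6 and 247.9 CPM in mutant ovaries, against 126.6, 130.8 and 182.2 CPM in wild-type ovaries. The groups did not overlap. The log2 fold change was 1.32 ± 0.40 (SE) with an edgeR adjusted p of 0.0839, and with DESeq2 it was 1.30 (adjusted p = 0.0231), past the threshold. The mutant effect on fn1b differed between 61 and 47 dpf by -1.53 ± 0.56 on the log2 scale (SE), with an edgeR adjusted p of 0.519, so a difference between the ages was not shown. Without mutant replicate 1 at 47 dpf this value was -0.90 (edgeR adjusted p = 0.719).

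fn1a had 242.9, 217.5 and 245.8 CPM in mutant ovaries at 61 dpf, against 127.6, 194.1 and 139.5 CPM in wild-type ovaries at 61 dpf. These groups did not overlap either, but the log2 fold change of 0.62 ± 0.24 (SE) did not pass the test (edgeR adjusted p = 0.139). At 47 dpf fn1a had 253.3, 260.4 and 180.6 CPM in mutants, against 242.1, 309.5 and 171.8 CPM in wild type. The groups overlapped fully, with a log2 fold change of -0.06 ± 0.24 (SE, with an edgeR adjusted p of 0.998).

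The share of fibronectin counts that came from fn1b sets both copies against each other within a library. It was 55.8%, 71.5% and 50.2% in mutants and 49.8%, 40.3% and 56.6% in wild type at 61 dpf. At 47 dpf it was 74.5%, 54.2% and 57.8% in mutants, against 22.4%, 16.2% and 22.3% in wild type. The wild-type libraries at 47 dpf therefore stood apart from the other 9, which all lay at 40.3% or above. The ratio of fn1b to fn1a counts was 6.66-fold higher in mutant than in wild type at 47 dpf (exact two-sided permutation p = 0.1, the smallest that 3 against 3 libraries allow) and 1.54-fold higher at 61 dpf (exact permutation p = 0.4). In wild type the ratio was 3.79-fold higher at 61 than at 47 dpf (exact permutation p = 0.1), and in mutants it was 0.876 times as high at 61 as at 47 dpf (exact permutation p = 0.6).

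**Figure D1:**
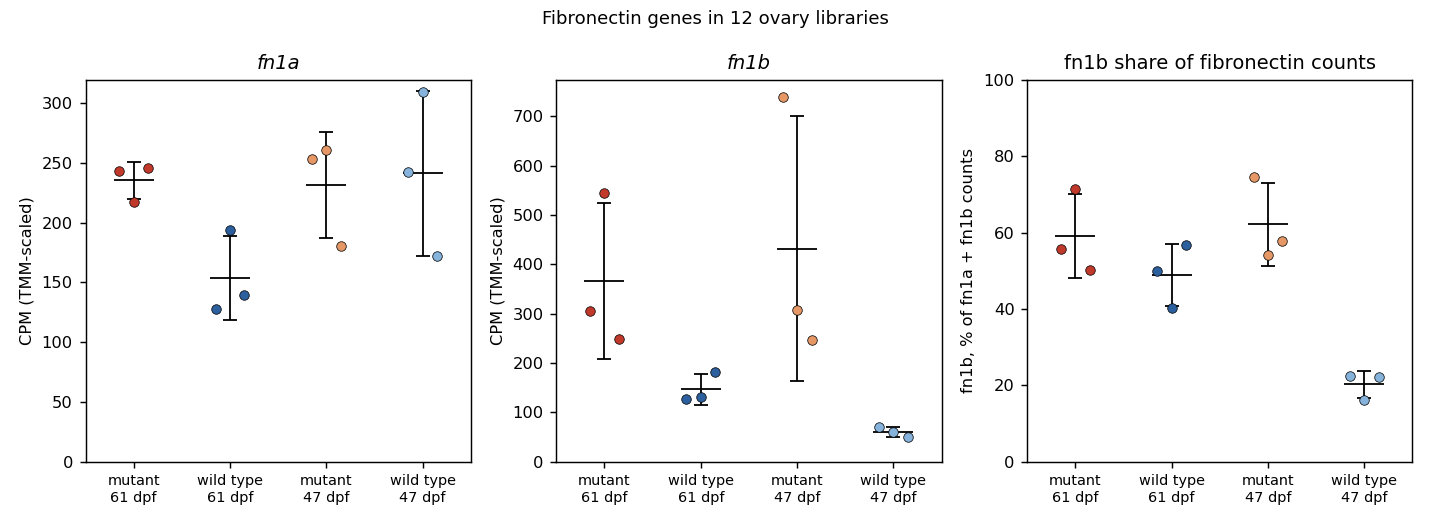
CPM of fn1a (left) and fn1b (middle) and the percentage of fn1a plus fn1b counts that belong to fn1b (right), in 3 libraries of each group; points are libraries and bars are the mean and SD. The fn1b share of the wild-type libraries at 47 dpf lies between 16.2% and 22.4%, below the 40.3% to 74.5% of the other 9 libraries.

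Summed markers of several other cell types were also higher in mutants, not always at both ages. The 13 macrophage and neutrophil markers, all with a row and none at 0 in any group, summed to 177 to 193 CPM in mutants and 71.3 to 109 CPM in wild type at 61 dpf, and to 141 to 305 CPM in mutants and 60.4 to 92.9 CPM in wild type at 47 dpf. Mutant replicate 1 at 47 dpf, the library highest in fn1b, was also the highest in this sum. At 61 dpf fn1b was highest in mutant replicate 2 (545.6 CPM), where this sum was 179 CPM, below the 193 CPM of mutant replicate 1. Over the 12 libraries cd74a and cd74b, the genes of the MHC class II invariant chain, made up 40.7% to 72.3% of the macrophage and neutrophil sum. Without them, a choice made after seeing the data, the other 11 markers summed to 60.9 to 72.7 CPM in mutants and 37.9 to 64.7 CPM in wild type at 61 dpf, which overlapped, and to 38.9 to 96.1 CPM in mutants and 26.3 to 31.3 CPM in wild type at 47 dpf, which did not. As this list was trimmed after seeing the data, the following match only describes these libraries. In every group the library highest in fn1b was also the highest in this sum of 11. These were mutant replicate 1 (96.1 CPM) and wild-type replicate 1 (31.3 CPM, beside 29.7 CPM in replicate 2) at 47 dpf. At 61 dpf they were mutant replicate 2 (72.7 CPM) and wild-type replicate 3 (64.7 CPM). There spi1b held 24.0 of the 64.7 CPM of wild-type replicate 3, and at most 9.35 CPM in the other wild-type libraries. Of all 13, 7 (53.8%) lay wholly above wild type at 61 dpf, beside 15.6% of all genes, and 1 wholly below, beside 12.3%. The 10 theca and stroma markers, again with none at 0, summed to 294 to 358 CPM in mutants and 199 to 252 CPM in wild type at 61 dpf, and to 298 to 535 CPM in mutants and 245 to 298 CPM in wild type at 47 dpf. At 61 dpf mutant replicate 2 had the highest such sum of its group, at 358 CPM. Mutant replicate 1 at 47 dpf had the lowest theca and stroma sum of its group. Its 298.3 CPM barely exceeded the 297.9 CPM of wild-type replicate 1. Of these 10 markers 7 were positive and 3 negative at 47 dpf, and 9 positive and 1 negative at 61 dpf. Wholly above wild type were 4 (40%) at 47 dpf, beside 8.01% of all genes, and 5 (50%) at 61 dpf, beside 15.6%. None lay wholly below. At 47 dpf col1a1a had 74.2 to 141 CPM in mutants and 37.1 to 53.9 CPM in wild type. cyp17a1 had 102 to 168 CPM in mutants and 135 to 171 CPM in wild type. Liver makes plasma fibronectin, and 7 of 8 liver markers had a row, with none at 0 in any group. They summed to 15.8 to 40.7 CPM in mutants and 10.1 to 16.4 CPM in wild type at 61 dpf, and to 24.9 to 104 CPM in mutants, highest in replicate 1, and 14.4 to 24.6 CPM in wild type at 47 dpf. The liver sums overlapped between genotypes at 61 dpf, where mutant replicate 1 had 40.7 CPM and mutant replicate 2 had 17.2 CPM. Of the other lists, 9 granulosa cell markers summed to 96.1 to 115 CPM in mutants and 66.1 to 86.0 CPM in wild type at 61 dpf, and overlapped between genotypes at 47 dpf. Only 3 of these 9 had a positive log2 fold change at 61 dpf, with a median of -0.29. There 2 (22.2%) lay wholly above wild type, beside 15.6% of all genes, and 2 wholly below, beside 12.3%. gsdf had 36.1 to 53.5 CPM in mutants and 9.92 to 18.9 CPM in wild type at 61 dpf. fshr went the other way, with 3.89 to 4.85 CPM in mutants and 7.30 to 11.5 CPM in wild type. The 14 endothelial and mural markers, none at 0 in any group, did not overlap at 47 dpf, with 158 to 169 CPM in mutants and 117 to 141 CPM in wild type. Nor did the oocyte sum at that age, with 8128 to 9624 CPM in mutants and 7551 to 8015 CPM in wild type. Yet 7 of the 12 oocyte markers were positive and 5 negative at 47 dpf, and none lay wholly above wild type. The 1 wholly below was gdf9, with 59.6 to 62.7 CPM in mutants and 75.6 to 90.9 CPM in wild type. The 12 exocrine pancreas markers ranged from 4.30 to 2266 CPM over single libraries, and the 15 skeletal muscle markers reached 309.9 CPM in mutant replicate 2 at 47 dpf and at most 51.3 CPM elsewhere. The part of these cells in the fn1b difference was not tested.

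Over all members, 9 of 34 (26.5%) had mutant libraries wholly above wild type at 47 dpf, against a background of 8.01% of all genes tested. One member lay wholly below, 2.94% of the members against a background of 4.6%. At an unadjusted p under 0.05 edgeR gave 10 of the 34, where 6.92% of all genes did so. The median log2 fold change was 0.35, beside 0.02 for all genes tested. At 61 dpf 12 of 34 members (35.3%) lay wholly above wild type, against 15.6% of all genes, and 2 (5.88%) wholly below, against 12.3%. No member passed the edgeR threshold at 61 dpf, where 1.82% of all genes did, while 8 members (23.5%) had an unadjusted p under 0.05, beside 25.3% of all genes. The median of the members at 61 dpf was 0.14, beside 0.01 for all genes.

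With DESeq2, 2 members passed at 47 dpf (fn1b and itgae.2, of a background of 0.81%) and 2 at 61 dpf (fn1b and itga6l, of 11.2%). The mutant effect differed between 61 and 47 dpf for no member and for no gene at all with edgeR (0%). It was positive for 13 of 34 members, beside 46.7% of all genes. Under upper-quartile scaling 18 members were positive, and the median of all genes for this difference moved from -0.04 to 0.10. At an unadjusted p under 0.05 that difference held 6 members, and 8.46% of all genes. DESeq2 called none of the members for this difference and 0.56% of the genes it tested.

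**Figure D2:**
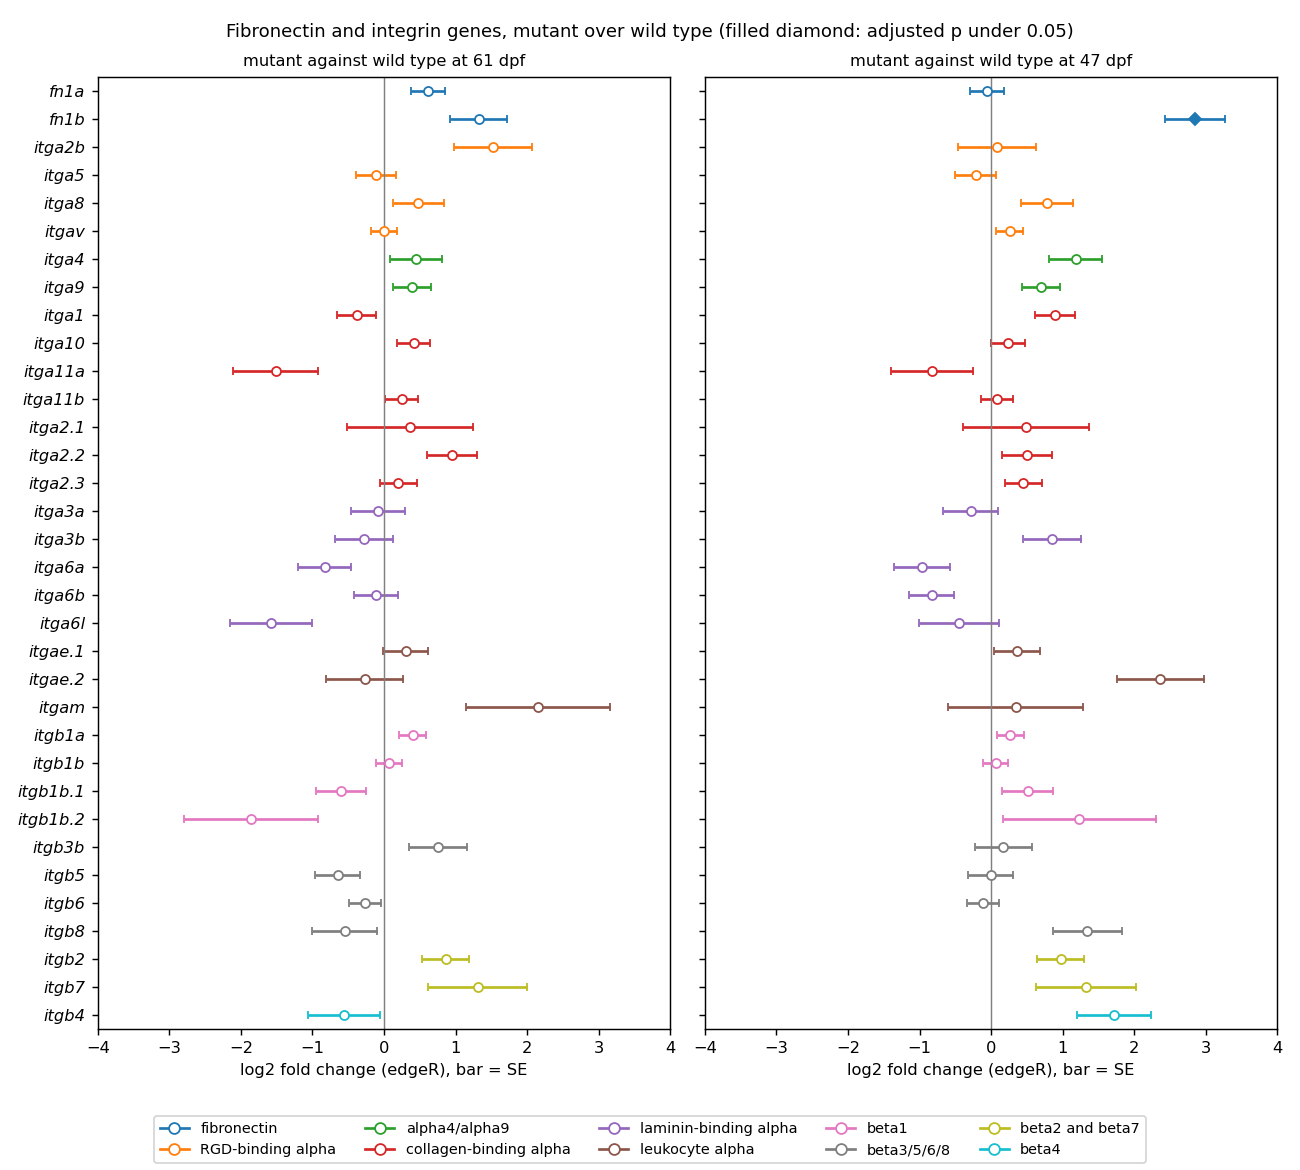
Log2 fold change of mutant over wild type at 61 dpf (left) and 47 dpf (right) for the 34 members tested, in role order, with bars of 1 SE. The one filled diamond is fn1b at 47 dpf, at 2.86; open circles did not pass the adjusted p threshold of 0.05.

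Among the alpha chains that bind the RGD motif, itga5 pairs with beta 1 as the classical fibronectin receptor. itga5 averaged 46.9 ± 6.80 CPM in mutant and 50.6 ± 13.7 CPM in wild type at 61 dpf, and 24.8 ± 6.21 CPM in mutant and 28.8 ± 10.0 CPM in wild type at 47 dpf (SD, n = 3 each). Genotypes overlapped at both ages, with log2 fold changes of -0.11 ± 0.28 at 61 dpf and -0.22 ± 0.28 at 47 dpf (SE). The first of these was 0.07 under upper-quartile scaling, which moved the median of all genes at 61 dpf to 0.20. itgav, the alpha chain of the vitronectin receptors, also overlapped at both ages. itga8, whose best known ligand is nephronectin, had mutant libraries above wild type at 47 dpf without passing the test (0.78 ± 0.36, edgeR adjusted p = 0.723).

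itga2b, the alpha chain of the platelet fibrinogen receptor and a marker of thrombocytes in zebrafish, had 0.69, 0.44 and 0.67 CPM in mutants at 61 dpf, against 0.14, 0.19 and 0.30 CPM in wild type at 61 dpf. The groups did not overlap, but these values rest on 12 to 17 counts per mutant library and 4 to 7 per wild-type library. Mutant over wild type was 1.53 ± 0.54 on the log2 scale (SE, with an edgeR adjusted p of 0.115). At 47 dpf itga2b had 0.31, 0.24 and 0.44 CPM in mutants and 0.56, 0.15 and 0.23 CPM in wild type, which overlapped. The 7 thrombocyte markers, none at 0 in any group, summed to 13.9 to 19.0 CPM in mutants and 9.26 to 18.2 CPM in wild type at 61 dpf, so that sum overlapped between genotypes. Single markers differed. gp1bb (14.3% of the 7) lay wholly above wild type, as itga2b did, beside 15.6% of all genes. It had 4.47 to 6.12 CPM in mutants and 2.05 to 4.01 CPM in wild type. gp9 (14.3%) lay wholly below, beside 12.3% of all genes.

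The alpha 4 and alpha 9 chains bind VCAM, tenascin and a fibronectin segment outside the RGD motif. itga4, which is carried by many leukocytes, had 6.26, 2.71 and 2.14 CPM in mutants at 47 dpf, against 1.76, 1.56 and 1.60 CPM in wild type, and was chosen for per-library values after these were seen. The groups did not overlap, and the log2 fold change of 1.18 ± 0.37 (SE) had an edgeR adjusted p of 0.433. At 61 dpf itga4 also lay wholly above wild type, with 3.89 ± 0.79 CPM in mutants and 2.85 ± 0.07 CPM in wild type (SD, n = 3 each; log2 fold change 0.45 ± 0.36, SE, with an edgeR adjusted p of 0.462). itga9 averaged 8.32 ± 1.95 CPM in mutants and 6.35 ± 1.84 CPM in wild type at 61 dpf, and 10.6 ± 1.04 CPM in mutants and 6.49 ± 1.15 CPM in wild type at 47 dpf (SD, n = 3 each). Its groups overlapped at 61 dpf and did not at 47 dpf (log2 fold change 0.70 ± 0.26, SE, with an edgeR adjusted p of 0.561).

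Of the 7 collagen-binding alpha genes, 5 had a positive log2 fold change at 61 dpf and 6 at 47 dpf, and none passed the edgeR threshold or DESeq2. At an unadjusted p under 0.05 edgeR gave 2 of them (28.6%) at 61 dpf, beside 25.3% of all genes, and 1 (14.3%) at 47 dpf, beside 6.92%. The 2 at 61 dpf went opposite ways. itga2.2 had a log2 fold change of 0.95 ± 0.35 (SE, with an edgeR adjusted p of 0.124). itga11a had -1.51 ± 0.59 (SE, with an edgeR adjusted p of 0.142), and was the 1 negative gene at 47 dpf (-0.83 ± 0.57, SE). itga2.3, one of 3 copies of the alpha 2 collagen receptor gene in the table, averaged 9.50 ± 2.49 CPM in mutants and 8.27 ± 1.93 CPM in wild type at 61 dpf, and 11.6 ± 1.67 CPM in mutants and 8.51 ± 1.67 CPM in wild type at 47 dpf (SD, n = 3 each). itga1, whose product binds collagen IV of basement membranes, had 3.32, 2.35 and 3.75 CPM in mutants at 47 dpf, against 1.64, 1.41 and 2.02 CPM in wild type. These groups did not overlap (log2 fold change 0.90 ± 0.28, SE, with an edgeR adjusted p of 0.429). At 61 dpf itga1 had 2.28, 3.16 and 2.503 CPM in mutants, against 2.87, 3.83 and 3.69 CPM in wild type, and the groups overlapped (-0.38 ± 0.27, SE, with an edgeR adjusted p of 0.403). The mutant effect on itga1 differed between 61 and 47 dpf by -1.28 ± 0.39 (SE), the smallest unadjusted p of any member for that difference, with an edgeR adjusted p of 0.448.

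The laminin-binding alpha chains had mostly negative values. All 5 had a negative log2 fold change at 61 dpf, and 4 of 5 were negative at 47 dpf. Under upper-quartile scaling itga3a and itga6b turned positive at 61 dpf (0.11 and 0.09). That scaling moved the median of all genes there to 0.20, above both values. None passed the edgeR threshold at either age. An unadjusted p under 0.05 was held by 2 of 5 at 61 dpf, where 25.3% of all genes held one, and by 2 of 5 at 47 dpf, where 6.92% did. DESeq2 called itga6l at 61 dpf and none at 47 dpf.

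itga6b, a copy of the alpha 6 laminin receptor gene, averaged 49.9 ± 16.1 CPM in mutants and 53.9 ± 17.5 CPM in wild type at 61 dpf (SD, n = 3 each). At 47 dpf it had 25.2, 47.9 and 48.1 CPM in mutants, against 59.6, 77.1 and 78.7 CPM in wild type. It was the 1 member wholly below wild type at 47 dpf (log2 fold change -0.83 ± 0.31, SE, with an edgeR adjusted p of 0.562). itga6a lay wholly below wild type at 61 dpf, with 3.17 ± 0.99 CPM in mutants and 5.65 ± 0.45 CPM in wild type (SD, n = 3 each; -0.83 ± 0.37, SE, with an edgeR adjusted p of 0.188).

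itga6l, a further gene of the alpha 6 name, had 25.8, 19.8 and 24.5 CPM in mutants at 61 dpf, against 54.9, 16.4 and 138 CPM in wild type. The mutants lay close together and inside the wide range of wild type, whose replicate 2 was the lowest of all 6 libraries and replicate 3 the highest. The log2 fold change was -1.57 ± 0.57 (SE, with an edgeR adjusted p of 0.121) and -1.60 with DESeq2 (adjusted p = 0.0373). It was -2.04 without wild-type replicate 2 (edgeR adjusted p = 0.0301) and -0.62 without wild-type replicate 3, so single wild-type libraries decided it. At 47 dpf itga6l had 21.0, 23.5 and 42.6 CPM in mutants and 35.6, 28.5 and 54.4 CPM in wild type, which overlapped.

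Integrin alpha chains of leukocytes were represented by itgae.1, itgae.2 and itgam. In mammals the alpha E chain pairs with beta 7 on lymphocytes within epithelia, and alpha M pairs with beta 2 on macrophages and neutrophils. itgae.2 had 3.01, 0.96 and 1.40 CPM in mutants at 47 dpf, against 0.24, 0.42 and 0.38 CPM in wild type. No library overlapped between the genotypes, and the log2 fold change was 2.37 ± 0.60 (SE). It did not pass with edgeR (adjusted p = 0.27) and did with DESeq2 (2.35, adjusted p = 0.0328). Without mutant replicate 1 the log2 fold change was 1.76 (edgeR adjusted p = 0.729). The wild-type values rest on 6.42 to 10.8 estimated counts per library, and reads shared with itgae.1, which has 1 gene between itself and itgae.2, could be divided between the copies.

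At 61 dpf itgae.2 had 1.14, 2.84 and 0.78 CPM in mutants, against 2.22, 1.04 and 2.53 CPM in wild type. The groups overlapped (log2 fold change -0.27 ± 0.54, SE, with an edgeR adjusted p of 0.79), and the sign was positive, at 0.04, without mutant replicate 3. The mutant effect differed between 61 and 47 dpf by -2.64 ± 0.81 (SE, with an edgeR adjusted p of 0.449). itgae.1 overlapped between genotypes at both ages, with 15.4 ± 1.45 CPM in mutants and 12.48 ± 4.93 CPM in wild type at 61 dpf, and 12.2 ± 4.18 CPM in mutants and 9.50 ± 2.07 CPM in wild type at 47 dpf (SD, n = 3 each). Lymphocyte markers, 10 in all, summed to 16.7 to 24.2 CPM in mutants and 10.1 to 19.6 CPM in wild type at 61 dpf, with cd79b at 0 in that wild-type group, and to 15.4 to 18.4 CPM in mutants and 11.1 to 21.3 CPM in wild type at 47 dpf.

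The beta 2 chain is the common beta chain of leukocyte integrins. itgb2 had 15.3, 17.3 and 15.2 CPM in mutants at 61 dpf, against 6.52, 10.1 and 9.83 CPM in wild type. At 47 dpf itgb2 had 24.2, 9.40 and 10.8 CPM in mutants, against 8.16, 7.88 and 6.64 CPM in wild type. The mutants were wholly above wild type at both ages, with mutant replicate 1 the highest at 47 dpf, as it was for fn1b. The log2 fold changes were 0.86 ± 0.33 at 61 dpf (SE, with an edgeR adjusted p of 0.135) and 0.97 ± 0.33 at 47 dpf (SE, with an edgeR adjusted p of 0.482), neither past the threshold. The sum of the 13 macrophage and neutrophil markers, given above, also did not overlap between genotypes at either age. At 61 dpf it did without cd74a and cd74b, where wild-type replicate 3 was high in spi1b (24.0 CPM). Other single markers overlapped there too, among them csf1ra and marco. They had 8.42 and 6.40 CPM in wild-type replicate 3, against 7.50 and 5.26 CPM in mutant replicate 1. Of the 13 markers, 7 lay wholly above wild type, beside 15.6% of all genes, and 1 wholly below, beside 12.3%. The part of these markers in the itgb2 values was not tested.

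itgb7, the beta chain of lymphocyte integrins with alpha 4 or alpha E, lay wholly above wild type at 61 dpf, with 1.86 ± 0.70 CPM in mutants and 0.75 ± 0.21 CPM in wild type (SD, n = 3 each; log2 fold change 1.31 ± 0.69, SE, with an edgeR adjusted p of 0.255). At 47 dpf its groups overlapped, with 1.43 ± 1.07 CPM in mutants and 0.58 ± 0.45 CPM in wild type (SD, n = 3 each).

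Beta 1 is the partner of most matrix-binding alpha chains. Its gene itgb1b averaged 26.0 ± 1.56 CPM in mutants and 24.8 ± 3.27 CPM in wild type at 61 dpf, and 22.7 ± 2.27 CPM in mutants and 21.7 ± 3.35 CPM in wild type at 47 dpf (SD, n = 3 each). Genotypes overlapped at both ages, with log2 fold changes of 0.07 ± 0.18 at 61 dpf and 0.06 ± 0.18 at 47 dpf (SE). itgb1a gave 0.40 ± 0.19 at 61 dpf (SE, with an edgeR adjusted p of 0.202), with mutants wholly above wild type, and 0.27 ± 0.19 at 47 dpf (SE, with an edgeR adjusted p of 0.926). itgb1b, itgb1b.2 and itgb1b.1 lie side by side in this order with no other gene between them, and the estimation may divide reads among these copies, so their single values are uncertain. itgb1b.2 varied widely, from 0.06 to 3.26 CPM among mutants at 61 dpf and from 1.23 to 7.56 CPM among wild-type libraries at 61 dpf.

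The beta 3, 5, 6 and 8 chains pair with alpha V, and alpha V beta 6 and alpha V beta 8 are known for activating latent TGF-beta. Among the 32 members with a RefSeq entry, itgb6 was the only one on the same chromosome as adamts9. It averaged 158 ± 9.02 CPM in mutants and 190 ± 58.5 CPM in wild type at 61 dpf, and 161 ± 35.4 CPM in mutants and 174 ± 12.8 CPM in wild type at 47 dpf (SD, n = 3 each). It overlapped between genotypes at both ages.

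itgb8 had 3.26, 3.93 and 3.06 CPM in mutants at 61 dpf, against 4.22, 7.98 and 2.83 CPM in wild type at 61 dpf. At 47 dpf itgb8 had 4.03, 1.81 and 1.53 CPM in mutants, against 1.24, 1.14 and 0.53 CPM in wild type. The groups overlapped at 61 dpf, while at 47 dpf all 3 mutants were above all 3 wild types. The log2 fold change at 47 dpf was 1.35 ± 0.48 (SE, with an edgeR adjusted p of 0.519), and at 61 dpf it was -0.55 ± 0.46 (SE, with an edgeR adjusted p of 0.479). The effect differed between 61 and 47 dpf by -1.89 ± 0.66 (SE), with an edgeR adjusted p of 0.5.

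The beta 4 chain pairs with alpha 6 in the hemidesmosomes that fix epithelia to laminin. itgb4 had 6.15, 8.38 and 20.1 CPM in mutants at 47 dpf, against 6.16, 2.63 and 1.76 CPM in wild type. The lowest mutant library just overlapped the highest wild type, and the log2 fold change of 1.72 ± 0.52 (SE) had an edgeR adjusted p of 0.42. At 61 dpf itgb4 had 4.89, 10.0 and 5.28 CPM in mutants, against 9.68, 9.49 and 10.7 CPM in wild type, with a log2 fold change of -0.56 ± 0.50 (SE, with an edgeR adjusted p of 0.514). The mutant effect differed between 61 and 47 dpf by -2.28 ± 0.72 (SE, with an edgeR adjusted p of 0.464). Without mutant replicate 3 at 47 dpf the value for that age was 1.02.

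**Figure D3:**
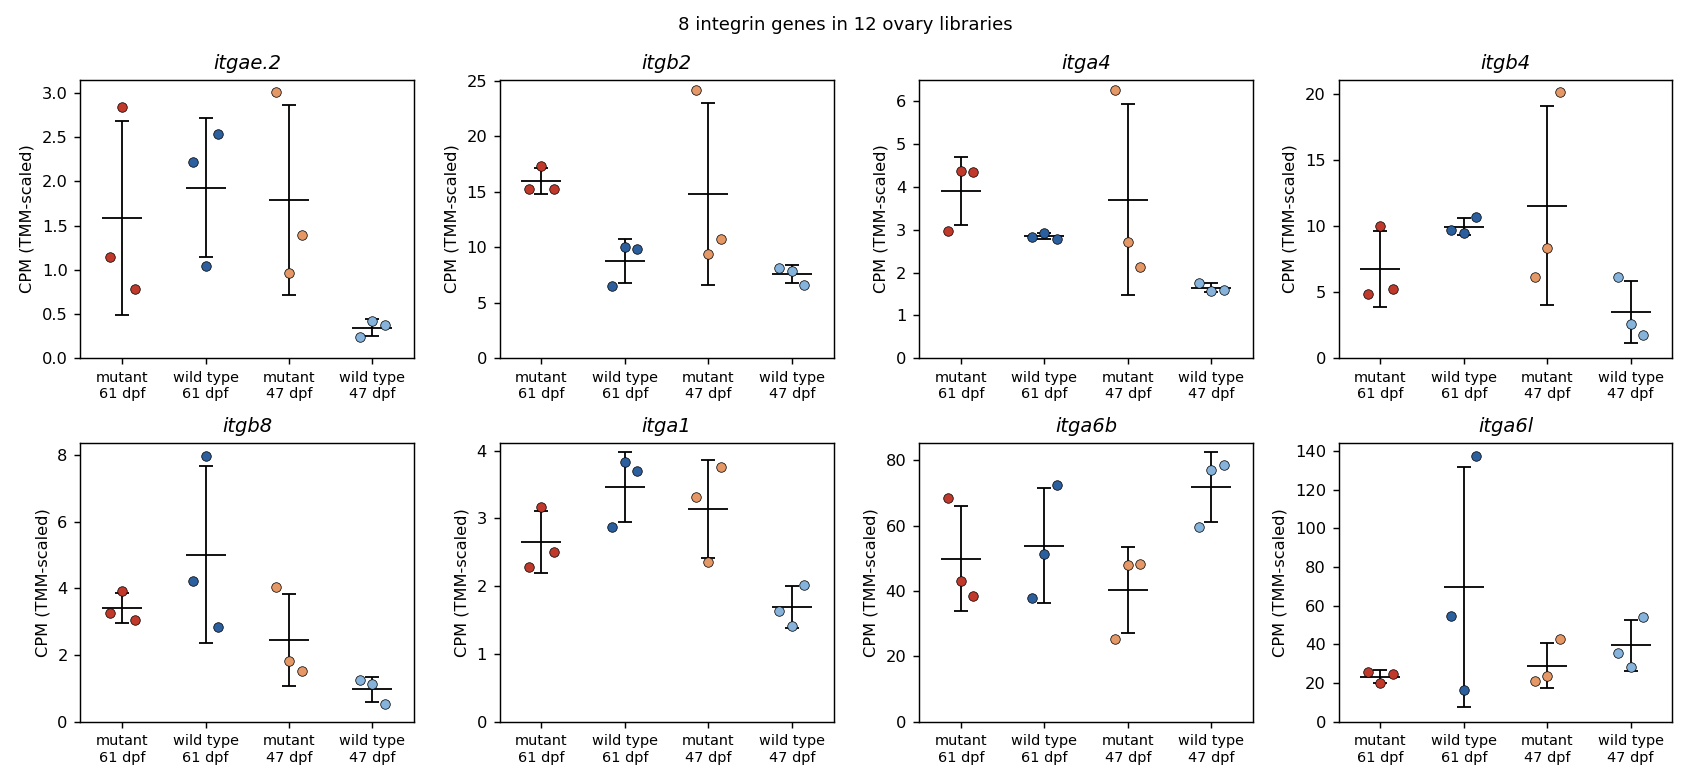
CPM of 8 integrin genes in the 3 libraries of each group; points are libraries and bars are the mean and SD. The wild-type libraries at 47 dpf are the lowest group for itgae.2, itgb8 and itga1, at 0.24 to 0.42, 0.53 to 1.24 and 1.41 to 2.02 CPM, and the highest group mean for itga6b, at 71.8 CPM.

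With age, itgb8 was the 1 member of 34 that passed in wild type. Its wild-type libraries held 4.22, 7.98 and 2.83 CPM at 61 dpf and 1.24, 1.14 and 0.53 CPM at 47 dpf, with no overlap. The log2 fold change of 61 over 47 dpf was 2.36 ± 0.49 (SE, with an edgeR adjusted p of 0.0414), so itgb8 rose with age in wild type. Of all genes, 1.52% passed in that comparison. The call is near the threshold: it was lost in 10 of 12 fits that each left out 1 library (adjusted p 0.0501 to 0.122 in those), while the log2 fold change stayed between 1.86 and 2.63. The 2 fits that kept it left out mutant replicate 1 at 47 dpf or wild-type replicate 1 at 61 dpf. It was also lost under upper-quartile scaling (adjusted p = 0.0511) and with only the wild-type libraries in the fit (adjusted p = 0.118). In mutants the log2 fold change of itgb8 for 61 over 47 dpf was 0.46 ± 0.46 (SE, with an edgeR adjusted p of 0.9997).

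Other members had higher libraries in wild type at 61 than at 47 dpf without passing the edgeR threshold. The log2 fold change was positive for 22 of 34 members, beside 51.5% of all genes. Of the 34 members, 11 (32.4%) lay wholly above at 61 dpf, beside 11.2% of all genes, and none lay wholly below, beside 11.5% of all genes. At an unadjusted p under 0.05 edgeR gave 12 members (35.3%), beside 21.6% of all genes, and DESeq2 called 7 members (20.6%), beside 7.82%. The DESeq2 calls were fn1b, itgb1b.2, itgb8, itgb4, itgb1b.1, itgae.2 and itga1. Their edgeR log2 fold changes, beside that of itgb8, were 3.86 ± 1.06 for itgb1b.2 (adjusted p = 0.0806), 1.24 ± 0.36 for itgb1b.1 (adjusted p = 0.0896), 1.30 ± 0.40 for fn1b (adjusted p = 0.103), 2.46 ± 0.60 for itgae.2 (adjusted p = 0.062), 1.03 ± 0.28 for itga1 (adjusted p = 0.0752) and 1.502 ± 0.51 for itgb4 (adjusted p = 0.13), each with its SE. fn1a had -0.65 ± 0.24 in the same comparison (SE, with an edgeR adjusted p of 0.149).

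In mutants no member passed with edgeR between 61 and 47 dpf, and no gene did (0%). Values were positive for 21 of 34 members, beside 49% of all genes. At an unadjusted p under 0.05 there were 3 members, beside 3.83% of all genes, and DESeq2 called none of the members and 0.103% of all genes. Wholly above at 61 dpf were 4 members, beside 5.52% of all genes, and wholly below was 1, beside 6.04%. itga5 was among the 4, with 46.9 ± 6.80 CPM at 61 dpf and 24.8 ± 6.21 CPM at 47 dpf in mutants (SD, n = 3 each; log2 fold change 0.92 ± 0.29, SE). In wild type itga5 had 50.6 ± 13.7 CPM at 61 dpf and 28.8 ± 10.0 CPM at 47 dpf (SD, n = 3 each), also without overlap (0.81 ± 0.28, SE, with an edgeR adjusted p of 0.137). The comparison of genotypes at 47 dpf and that of ages in wild type share the wild-type libraries at 47 dpf, so members high in both, such as fn1b, itgae.2 and itgb8, rest on the same 3 low libraries.

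**Figure D4:**
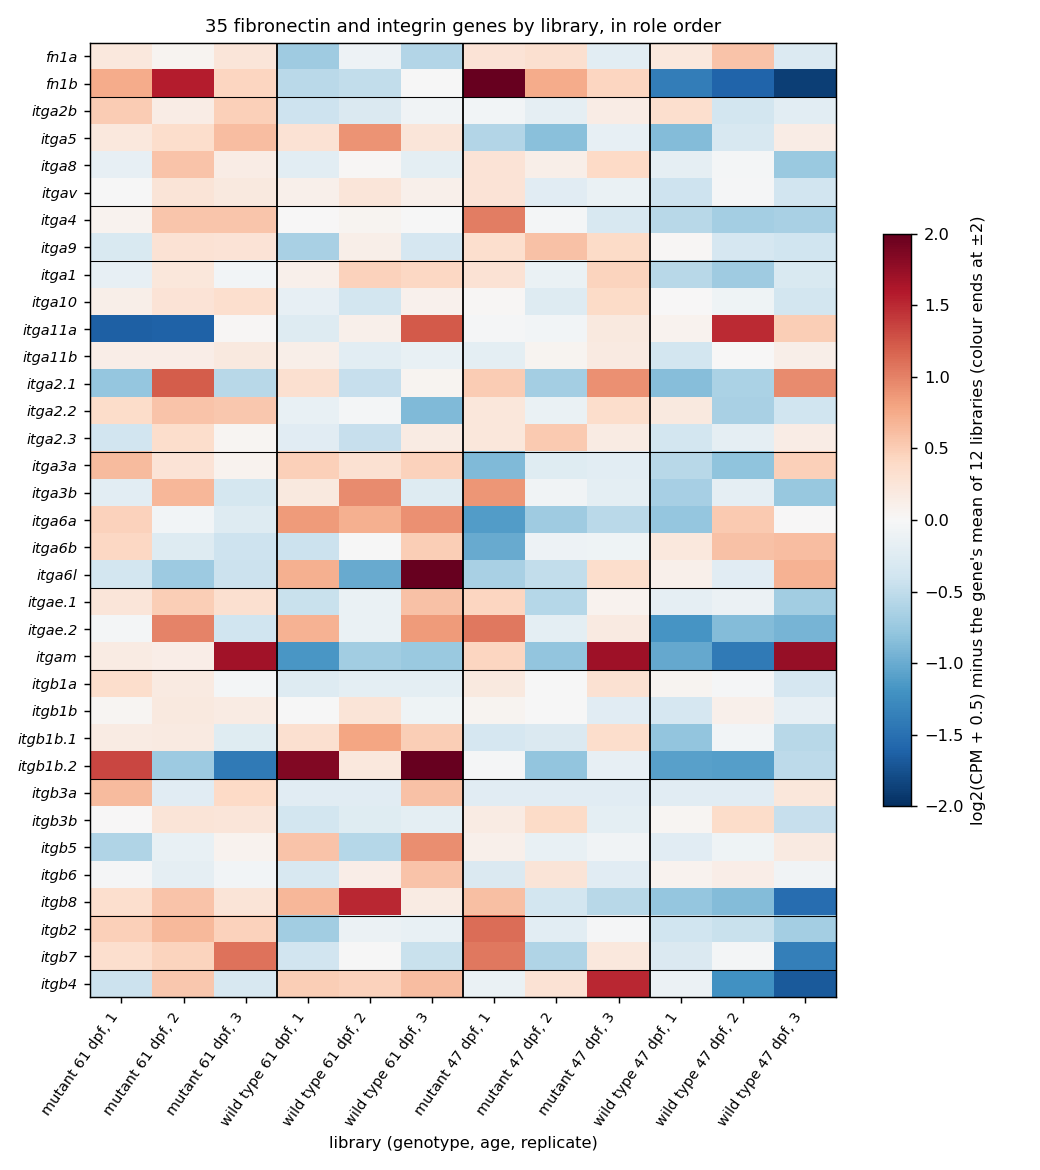
Each row is 1 of the 35 members, grouped by role, and each column 1 of the 12 libraries; colour is log2(CPM + 0.5) minus the mean of that gene over the libraries, with the colour scale ending at ±2. The fn1b row is lowest in the wild-type libraries at 47 dpf, at 49.2 to 69.8 CPM, and itgam is highest in replicate 3 of 3 groups, at 8.01 to 8.32 CPM.

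Genes that connect integrins to the cell interior and other integrin ligands were read from 3 lists. None of their members passed the edgeR threshold in either mutant comparison, where 1.82% of all genes did at 61 dpf and 0.0888% at 47 dpf. Of 39 integrin activators and adhesion adaptors, 37 were tested. At 61 dpf 19 of these 37 (51.4%) had a positive log2 fold change, beside 50.4% of all genes, with a median of 0.03, and 8 (21.6%) had an unadjusted p under 0.05, beside 25.3%. At 47 dpf 26 (70.3%) were positive, beside 52.7%, with a median of 0.17, and 6 (16.2%) had such a p, beside 6.92%. DESeq2 called 3 of them at 61 dpf (8.11%, beside 11.2% of all genes), namely actn1, rap1aa and apbb1ip, and at 47 dpf it called actn1 (2.7%, beside 0.81%).

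actn1, an alpha-actinin that links integrin adhesions to actin, had 22.8, 38.6 and 27.9 CPM in mutants at 61 dpf, against 11.7, 17.6 and 16.8 CPM in wild type. At 47 dpf it had 38.5, 24.1 and 23.5 CPM in mutants, against 11.4, 12.4 and 10.2 CPM in wild type. Mutants lay wholly above wild type at both ages, with log2 fold changes of 0.95 ± 0.26 at 61 dpf (SE, with an edgeR adjusted p of 0.0703) and 1.34 ± 0.27 at 47 dpf (SE, with an edgeR adjusted p of 0.134). rap1aa, a small GTPase that activates integrins through talin, had 33.6, 34.8 and 28.1 CPM in mutants at 61 dpf, against 51.2, 50.2 and 48.8 CPM in wild type, without overlap (-0.64 ± 0.15, SE, with an edgeR adjusted p of 0.0554).

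Of the 21 adhesion kinases and signalling scaffolds, 20 were tested. At 61 dpf 8 (40%) were positive, beside 50.4% of all genes, with a median of -0.14, and 6 (30%) had an unadjusted p under 0.05, beside 25.3%. At 47 dpf 3 (15%) were positive, beside 52.7%, with a median of -0.18, and 2 (10%) had such a p, beside 6.92%. DESeq2 called 3 at 61 dpf (15%, beside 11.2%), namely ptk2bb, arhgef7b and fyna, and none at 47 dpf, where it called 0.81% of all genes. ptk2bb, a copy of the gene for the focal adhesion kinase relative Pyk2, had 2.08, 28.6 and 1.67 CPM in mutants at 61 dpf, against 0.73, 0.80 and 1.16 CPM in wild type. At 47 dpf it had 1.197, 3.195 and 2.23 CPM in mutants, against 12.1, 21.6 and 24.3 CPM in wild type. The mutants were thus above wild type at 61 dpf, chiefly in replicate 2, and below at 47 dpf, with log2 fold changes of 3.598 ± 0.95 (SE, with an edgeR adjusted p of 0.0654) and -3.15 ± 0.91 (SE, with an edgeR adjusted p of 0.392). The difference between the ages was 6.75 ± 1.31 (SE), with an edgeR adjusted p of 0.292, and 6.74 with DESeq2 (adjusted p = 0.000746), its 1 call in this list for that difference. In wild type ptk2bb fell between the ages, by 4.43 on the log2 scale (edgeR adjusted p = 0.0485). arhgef7b, which encodes the adhesion scaffold beta-Pix, had 36.0, 48.8 and 44.7 CPM in mutants at 61 dpf, against 68.9, 58.9 and 70.4 CPM in wild type, without overlap (-0.61 ± 0.18, SE, with an edgeR adjusted p of 0.0802).

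Of 24 other integrin ligands, 22 were tested. At 61 dpf 16 (72.7%) were positive, beside 50.4% of all genes, with a median of 0.62 beside 0.01 for all genes, and 8 (36.4%) had an unadjusted p under 0.05, beside 25.3%. At 47 dpf 19 (86.4%) were positive, beside 52.7%, with a median of 0.38 beside 0.02, and 7 (31.8%) had such a p, beside 6.92%. DESeq2 called 4 of them at 61 dpf (18.2%, beside 11.2%), with spp1, vwf and edil3a higher and mfge8a lower in mutants, and none at 47 dpf, where it called 0.81% of all genes. vwf, the von Willebrand factor of endothelium and thrombocytes, had 2.85, 3.31 and 3.17 CPM in mutants at 61 dpf, against 1.35, 1.70 and 1.03 CPM in wild type. edil3a, whose mammalian counterpart is an RGD protein bound by alpha V integrins, had 3.38, 3.74 and 3.89 CPM in mutants at 61 dpf, against 1.95, 2.22 and 2.06 CPM in wild type. Neither overlapped, with log2 fold changes of 1.19 ± 0.30 for vwf (SE, with an edgeR adjusted p of 0.0625) and 0.82 ± 0.24 for edil3a (SE, with an edgeR adjusted p of 0.0789). At 61 dpf the 14 endothelial and mural markers summed to 133 to 185 CPM in mutants and 126 to 185 CPM in wild type, an almost full overlap. Of these 14, pecam1 and pdgfrb (14.3%) lay wholly above wild type, beside 15.6% of all genes, and none wholly below, beside 12.3%. pecam1 had 11.3 to 13.9 CPM in mutants and 5.07 to 7.89 CPM in wild type. The muscle actin gene acta2 reached 67.5 CPM in wild-type replicate 3 and at most 30.0 CPM in mutants at 61 dpf.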

How the data were processed

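The deposited table holds the authors' estimated counts by gene symbol for all 12 libraries, made with kallisto on GRCz11 per the submitters' processing notes. Versions, annotation and the summing over transcripts were not stated in those sources. The design text names other ages than the labels; the labels' 47 and 61 dpf were used. One row with no symbol, holding 0.000113% or less of each library, was dropped. Estimated counts were rounded, filtered with filterByExpr (21407 genes kept) and TMM-scaled, and 12 libraries were fitted in 1 edgeR 4.0.16 quasi-likelihood model with 4 groups (R 4.3.3; common biological coefficient of variation 0.33), checked on simulated data. Benjamini-Hochberg adjustment ran over all genes tested, with calls at 0.05; every adjusted p is edgeR's unless DESeq2 (1.42.0) is named. The SE is the log2 fold change divided by the square root of the F statistic. A count of 0 allows up to 3 counts, 0.0774 to 0.182 CPM, which covers counting error only.

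The labels do not say that replicates are separate animals, so p-values reflect only how far these libraries vary, which may be technical. Members, gene lists and role groups were chosen with earlier results of these data known, and the lists not for how their genes moved. Values per library were given for fn1a, fn1b, members called in any comparison and the 3 with the smallest p in each mutant comparison and in the difference; the member highest in mean CPM per role group got group means; of each list, members called in a mutant comparison were named, or otherwise the 2 with the smallest p at 61 dpf. Other members are named because their groups did not overlap or their values stood out, after these were seen. Of the members, 13 held whole values in every library and 10 fractional ones in all 12 (among them itga1, itga6l, itgae.1, itgae.2, itgb1b.1, itgb2 and itgb6), where copies may share reads. Gene neighbours came from a RefSeq table of another assembly that holds 32 members, so no coordinates or sequences are given. Alternatives tried were 2 other scalings, 2 other filters, DESeq2, only the libraries compared, the replicate number as a block, and each library left out.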

Additional observations from a re-analysis of the deposited data

How the results depend on the processing

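Of the values of named members under the alternatives, 701 kept direction and side of the threshold, 20 were no longer past it, 9 were newly past it and 15 changed sign. Members called at 47 dpf numbered 2 with DESeq2 and 0 with only the libraries compared (fn1b 2.85, adjusted p = 0.117), and 0 to 1 when 1 library was left out; the fn1b call was lost in 6 of 12 such fits, its value 2.22 to 3.12. At 61 dpf DESeq2 called 2, and leaving out a library gave 0 to 2, with itgb5 (-0.97) and itga6l called without wild-type replicate 2. For wild-type age the count was 7 with DESeq2, 0 with upper-quartile scaling (itgb8 2.26, adjusted p = 0.0511), 0 with only the libraries compared (2.33, adjusted p = 0.118) and 0 to 1 with a library left out. It stayed 0 for the difference and for mutant age under every alternative run. Over all genes, calls were 173 at 47 dpf, 2387 at 61 dpf, 1670 for wild-type age, 108 for the difference and 22 for mutant age with DESeq2; 989 at 61 dpf with upper-quartile scaling; 20 at 61 dpf and 26 for wild-type age with only the libraries compared. Leaving out a library gave 13 to 24 at 47 dpf, 27 to 1639 at 61 dpf and 16 to 848 for wild-type age. Upper-quartile scaling moved the median of all genes at 61 dpf to 0.20, and 22 members were then positive, against 19. The causes were not tested.

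Among the 8 members given per library by rule, signs changed only in fits with a library left out. Ranges were -0.26 to 0.16 for fn1a and -0.25 to 0.77 for itga2b at 47 dpf, -1.01 to 0.039 for itgae.2 at 61 dpf, and -0.96 to 0.075 for itga2b and -0.15 to 1.28 for itga6l with wild-type age. With mutant age they were -0.11 to 0.12 for fn1a, -0.65 to 0.40 for fn1b, -0.50 to 0.089 for itga6l and -0.92 to 0.43 for itgae.2.

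Replicate numbers were not shown to pair the libraries, and pairing was not excluded. Same-numbered deviations correlated at 0.03 to 0.25 at 47 dpf, with 1 of 3 pairs over 0.1, and different-numbered ones at -0.15 to 0.07. At 61 dpf same numbers gave -0.02 to 0.02, beside -0.03 to 0.02 for different numbers. Across ages the wild-type libraries gave -0.20 to 0.02 for same numbers, beside -0.23 to 0.24 for different numbers. Across ages the mutant libraries gave 0.07 to 0.16 for same numbers, again with 1 of 3 over 0.1. There every different-numbered value was negative, at -0.09 to -0.004. Deviations from a group mean sum to 0 within the group, so these values are not independent of the same-numbered ones. With the replicate block, members called were 0 at 47 dpf (fn1b 2.80, adjusted p = 0.0688), 0 at 61 dpf and 1 for wild-type age, and all-gene calls were 87 at 61 dpf and 115 for wild-type age.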

Other observations

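itgam, the alpha chain of the macrophage and neutrophil integrin with beta 2, was chosen for this description after its values were seen. Its level was 2.45, 2.40 and 8.01 CPM in mutants at 61 dpf, against 0.68, 1.13 and 1.07 CPM in wild type at 61 dpf. At 47 dpf it was 3.04, 1.02 and 8.08 CPM in mutants, against 0.80, 0.49 and 8.32 CPM in wild type. Replicate 3 was the highest library in 3 of the 4 groups, and wild type at 61 dpf was the exception. The 13 macrophage and neutrophil markers summed to 177 CPM in replicate 3 of the mutants at 61 dpf, the lowest of that group, and to 160 CPM in mutant replicate 3 and 72.4 CPM in wild-type replicate 3 at 47 dpf, neither the highest of its group. The log2 fold change of itgam was 2.16 ± 1.01 at 61 dpf (SE, edgeR adjusted p = 0.205), without overlap, and 0.34 ± 0.94 at 47 dpf (SE, edgeR adjusted p = 0.998).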
